A study of Mus musculus with 11 samples.

Results

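Genes that make glucose in the liver, move it across the cell membrane, take it through glycolysis or break down fructose were followed in hepatocytes of mice with and without the transcription factor XBP1. The 8 genes are *Pcx*, *Pck1*, *Fbp1*, *G6pc*, *Slc2a2*, *Gckr*, *Pklr* and *Khk*. They were picked by name for their place in gluconeogenesis, in the uptake and use of glucose and in fructose metabolism. The choice was made with earlier results of these data known. RNA was sequenced from isolated hepatocytes, purified over Percoll, of adult male C57BL/6 mice. The series asks how loss of hepatic XBP1 changes the response of these cells to a diet rich in fat and sugar.

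The 11 libraries fall into 4 groups. Mice with floxed alleles (*Xbp1* fl/fl, called fl/fl here) served as controls, and mice in which Cre under the albumin promoter deletes *Xbp1* in hepatocytes (*Xbp1* LKO, called LKO here) were the knockouts. Each genotype ate chow or was put on HFS, a diet high in fat and sugar that paired AIN-76 Western food with fructose and glucose in the drinking water, for up to 6 weeks. On chow there were 3 fl/fl and 2 LKO libraries of 1 mouse each, and on HFS there were 3 libraries of each genotype, each a pool of 2 mice. The library totals ran from 19191032 to 23888401 counts, and levels are given as CPM, counts scaled to library size with TMM factors.

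Between meals the liver builds glucose from lactate, amino acids and glycerol and releases it to the blood. After a meal it takes glucose up and stores or breaks it down, and fructokinase traps fructose as fructose 1-phosphate. Hepatocytes near the portal vein are known for gluconeogenesis, and those around the central vein for glycolysis.

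*Xbp1* itself (ENSMUSG00000020484) served as a check of the labels. It stood at 194, 200.1 and 221 CPM in the chow fl/fl libraries, at 95.7 and 128 in the chow LKO libraries, at 301, 294 and 242 in the HFS fl/fl libraries and at 117, 97.2 and 135 in the HFS LKO libraries. Every LKO library lay below every fl/fl library. The log2 fold change was -0.87 on chow (SE 0.18, adjusted p 0.0183) and -1.26 on HFS (SE 0.16, adjusted p 0.00253). These and all later adjusted p are from the edgeR quasi-likelihood test with Benjamini-Hochberg adjustment over all 13303 genes tested, with a threshold of 0.05, unless another tool is named. The counts are per gene, so RNA with and without the deleted stretch is not told apart.

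1 chow LKO library stood apart from the rest. In replicate 2 of that group the clock gene *Arntl* was at 15.7 CPM, against 0.952 to 3.75 in the other 10 libraries. *Alb* made up 1.67% of its counts, the lowest share of the 11 libraries, against 3.72% in replicate 1. It also had the lowest CPM of the 11 libraries for *Fbp1*, *Gckr*, *Pklr*, *Slc2a2* and *Khk*. Without it the genes called between genotypes on chow fell from 632 to 69 of all genes. Why it stands apart was not tested. Its file carries the number 3 in a group of 2, so whether a further chow LKO library exists that is not analysed here is not settled.

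All 8 genes passed the filter on low counts. Per kilobase of the principal transcript, the mean level over the 11 libraries was 1677 ± 463 CPM for *Pck1* (SD, n = 11), 988 ± 179 for *Fbp1*, 346 ± 82.6 for *Khk* and 215 ± 39.1 for *Pcx*. The other 4 genes followed at 191 ± 59.1 CPM per kilobase for *G6pc*, 129.9 ± 12.7 for *Gckr*, 91.7 ± 25.5 for *Pklr* and 86.5 ± 14.1 for *Slc2a2*. The SD ranges of *Pck1*, *Fbp1*, *Khk* and *Pcx* did not meet from each to the next, whereas from *Pcx* down each neighbouring pair had SD ranges that met. By CPM rather than per length, *Pck1* ranked 23 among all genes and *Gckr* ranked 537. On the scale of all annotated exons in place of the principal transcript, *Gckr* came last at 60.3 CPM per kilobase, because its annotated exons are 4335 bases long against 2014 in the principal transcript.

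**Figure D1:**
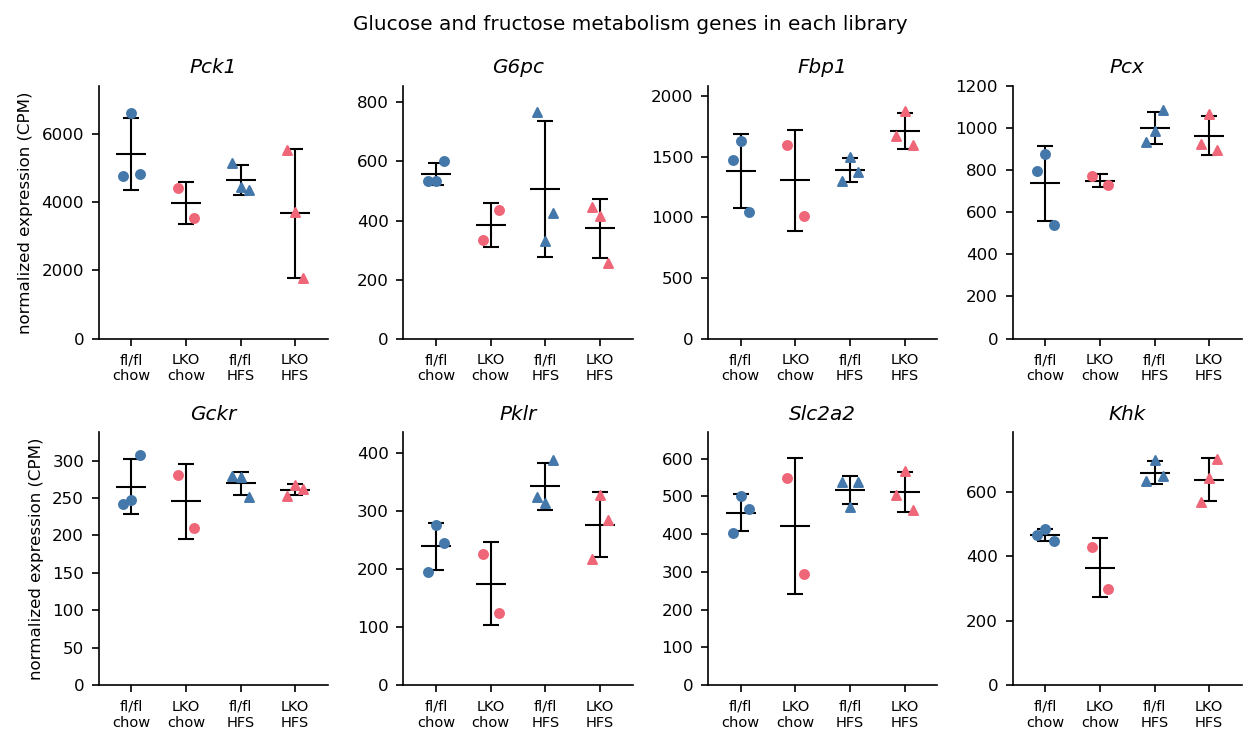
Normalised expression (CPM, vertical axes from 0) of the 8 genes in each library, with circles for chow, triangles for HFS, blue for fl/fl and red for LKO. Bars show the mean and the SD of each group, and every HFS library of *Khk* (571 to 704 CPM) and of *Pcx* (895 to 1084 CPM) lies above every chow library.

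*Pcx* encodes pyruvate carboxylase, the mitochondrial enzyme that turns pyruvate into oxaloacetate at the entry to gluconeogenesis (ENSMUSG00000024892, GRCm38 chromosome 19 from 4510472 to 4621752, plus strand). It stood at 795, 877 and 539 CPM in the chow fl/fl libraries, at 772 and 728 in the chow LKO libraries, at 934, 988 and 1084 in the HFS fl/fl libraries and at 926, 1069 and 895 in the HFS LKO libraries. Within each diet the genotypes overlapped, while every HFS library was above every chow library. Averaged over the genotypes, the log2 difference between HFS and chow was 0.40 (95% interval 0.11 to 0.69), with an adjusted p of 0.181 that missed the threshold. Averaged over the diets, the log2 difference between LKO and fl/fl was -0.02 (interval -0.30 to 0.27, adjusted p 0.958).

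*Pck1* encodes the cytosolic phosphoenolpyruvate carboxykinase, which commits oxaloacetate to glucose synthesis (ENSMUSG00000027513, chromosome 2 from 173153048 to 173159273, plus strand). The chow fl/fl libraries were at 4770.3, 6609 and 4829.7 CPM, the chow LKO libraries at 4415 and 3528, the HFS fl/fl libraries at 5157, 4446 and 4339, and the HFS LKO libraries at 5533, 3704 and 1768. On chow both LKO libraries were below the fl/fl libraries, but on HFS the LKO libraries spanned the fl/fl range, with replicate 1 above it and the other two below. The spread in HFS LKO was wide, with an SD of 1883 CPM around a mean of 3669, against 445 around 4647 in HFS fl/fl. The log2 difference between LKO and fl/fl averaged over the diets was -0.39 (interval -0.93 to 0.14, adjusted p 0.356), and between HFS and chow averaged over the genotypes it was -0.17 (interval -0.69 to 0.36, adjusted p 0.808).

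*Fbp1* encodes fructose 1,6-bisphosphatase, which returns carbon from the triose phosphates towards glucose (ENSMUSG00000069805, chromosome 13 from 62864753 to 62888282, minus strand). Its levels were 1474, 1627 and 1042 CPM in chow fl/fl, 1599.9 and 1012 in chow LKO, 1297, 1496 and 1378 in HFS fl/fl, and 1674, 1879.9 and 1593 in HFS LKO. On HFS all LKO libraries were above all fl/fl libraries, and on chow the genotypes overlapped. The log2 difference between LKO and fl/fl was 0.30 on HFS (SE 0.20, adjusted p 0.506) and -0.08 on chow (SE 0.23, adjusted p 0.890). The interaction, the genotype difference on HFS minus that on chow, was 0.38 on the log2 scale (interval -0.28 to 1.05, adjusted p 0.891).

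*G6pc* encodes the catalytic subunit of glucose 6-phosphatase, the last step before free glucose (ENSMUSG00000078650, chromosome 11 from 101367561 to 101377903, plus strand). It was at 535, 535 and 601 CPM in chow fl/fl, at 333 and 437 in chow LKO, at 767, 329 and 427 in HFS fl/fl and at 446, 416 and 257 in HFS LKO. Both chow LKO libraries were below the chow fl/fl libraries, and on HFS the genotypes overlapped, with fl/fl replicates 2 and 3 within the range of the LKO libraries. Averaged over the diets the log2 difference between LKO and fl/fl was -0.49 (interval -0.97 to -0.01), the lowest of the 8, with an unadjusted p of 0.0456 and an adjusted p of 0.184. The glucose 6-phosphate transporter gene *Slc37a4*, whose product feeds the same enzyme, is taken up with the pathway genes.

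*Slc2a2* encodes GLUT2, the membrane carrier that lets glucose in and out of hepatocytes and also carries fructose (ENSMUSG00000027690, chromosome 3 from 28697903 to 28731359, plus strand). The chow fl/fl libraries stood at 403, 501 and 467 CPM, chow LKO at 549 and 294, HFS fl/fl at 538, 473 and 539, and HFS LKO at 505, 567 and 463. The chow LKO libraries held both the lowest value of the 11 libraries and one of the highest, and the groups overlapped in every comparison. The averaged log2 differences were -0.07 for genotype (interval -0.40 to 0.26) and 0.23 for diet (interval -0.10 to 0.56).

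*Gckr* encodes a regulatory protein of the nucleus that binds fructose phosphates and so ties glucose use to fructose (ENSMUSG00000059434, chromosome 5 from 31297443 to 31327314, plus strand). Its libraries stood at 242, 247 and 307 CPM in chow fl/fl, 281 and 209.9 in chow LKO, 279, 278 and 252 in HFS fl/fl, and 253, 268 and 262 in HFS LKO. The groups overlapped in every comparison, and the values lay closer together, for their mean, than those of the other genes. The averaged log2 difference for genotype was -0.08 (interval -0.31 to 0.15), and that for diet was 0.06 (interval -0.17 to 0.28).

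*Pklr* encodes the liver form of pyruvate kinase, the last step of glycolysis and the opposite of the *Pcx* and *Pck1* pair (ENSMUSG00000041237, chromosome 3 from 89136142 to 89146784, plus strand). It was at 196, 276 and 246 CPM in chow fl/fl, 226 and 124 in chow LKO, 325, 315 and 389.6 in HFS fl/fl, and 217, 328 and 285 in HFS LKO. In fl/fl mice all HFS libraries were above all chow libraries, whereas in LKO mice HFS replicate 1 was below the higher chow library. The averaged log2 difference for diet was 0.59 (interval 0.21 to 0.97, unadjusted p 0.00526, adjusted p 0.132). That for genotype was -0.38 (interval -0.76 to -0.01, unadjusted p 0.0460, adjusted p 0.185). *Pklr* shares 711 exon bases with *Hcn3* on the opposite strand, which had 190 to 744 counts a library, and whether the counting kept the strands apart is not settled.

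*Khk* encodes ketohexokinase, or fructokinase, which phosphorylates fructose at the start of its breakdown (ENSMUSG00000029162, chromosome 5 from 30921431 to 30931248, plus strand). It stood at 467, 484 and 449 CPM in chow fl/fl, at 431 and 299.6 in chow LKO, at 634, 699.8 and 649.8 in HFS fl/fl and at 571, 643 and 704 in HFS LKO. All 6 HFS libraries were above all 5 chow libraries, on chow both LKO libraries were below the fl/fl libraries, and on HFS the genotypes overlapped. Averaged over the genotypes *Khk* rose by 0.66 on the log2 scale with HFS (SE 0.11, interval 0.41 to 0.90, adjusted p 0.0212), a fold of 1.58 (interval 1.33 to 1.87). The difference was 0.50 in fl/fl (SE 0.15, adjusted p 0.288) and 0.81 in LKO (SE 0.17, adjusted p 0.149) when each genotype was tested alone, and neither passed. The interaction was 0.30 (interval -0.18 to 0.79, adjusted p 0.882), and the averaged genotype difference was -0.20 (interval -0.44 to 0.04, adjusted p 0.293).

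The diet call of *Khk* was lost without any 1 of 3 libraries. Without chow LKO replicate 2 the averaged difference was 0.54 and the adjusted p 0.0620, without HFS fl/fl replicate 3 they were 0.66 and 0.0552, and without HFS LKO replicate 2 they were 0.65 and 0.0621. Over its 19 alternatives the difference of *Khk* ran from 0.54 to 0.80 and the adjusted p from 7.50e-07 to 0.0621, and 16 of the 19 passed.

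The comparison of genotypes asks what loss of XBP1 does to these genes at rest and under the diet. By the edgeR test 0 of 8 passed on chow, against 4.75% of all genes tested, with 0 at an unadjusted p under 0.05 and 0 by DESeq2. On HFS it was again 0 of 8, against 4.08%, with 0 at an unadjusted p under 0.05 and 0 by DESeq2. For the average over the diets it was 0 of 8, against 11.9%, with 0 by DESeq2. At an unadjusted p under 0.05 there were 2 (*G6pc* and *Pklr*), against 3400 of all 13303 genes, and DESeq2 called 1940 of 14598 genes. On chow those counts over all genes were 2561 of 13303 and 1115 of 13647, and on HFS 2321 of 13303 and 987 of 13647. Also, 0 of 8 genes had every LKO library on one side of every fl/fl library, against 7.52% of all genes. The averaged log2 differences were negative for 7 of the 8 and positive for *Fbp1*, with a median of -0.14 against 0.01 over all genes tested. With TMM factors the intervals put the averaged genotype difference of *Gckr* between -0.31 and 0.15 and that of *Pcx* between -0.30 and 0.27, so larger differences lie outside them, whereas those of *Pck1* and *G6pc* reach -0.93 and -0.97. Without chow LKO replicate 1 the averaged difference of *Pklr* was -0.63 with an adjusted p of 0.0271, which passed. Over the 19 alternatives the adjusted p of *Pklr* ran from 0.0271 to 0.651 and passed in 2, the other with no filter on low counts (-0.37, adjusted p 0.0458). That of *G6pc* ran from 0.00807 to 0.466 and passed in 1 of the 19, with no filter on low counts (-0.47).

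How the libraries are scaled moves these genotype differences. With plain library totals in place of TMM factors the median difference of all genes tested was 0.33 on chow, 0.27 on HFS and 0.30 for the average, against 0.002, 0.01 and 0.01 with TMM. On that scale the averaged differences of *Pcx*, *Gckr*, *Slc2a2* and *Khk* turned positive at 0.28, 0.21, 0.22 and 0.09, those of *Pck1*, *G6pc* and *Pklr* were negative at -0.11, -0.20 and -0.09, and *Fbp1* passed at 0.40 (adjusted p 0.0333, with a range of 0.0333 to 0.923 over the 19 alternatives), on a scale where 5790 of the 13303 genes passed, 5292 of them higher in LKO. All 8 genes except *Fbp1* lay below the shifted median. The diet differences moved less, since the median of all genes was -0.02 for the averaged diet comparison under library totals.

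The comparison of diets asks how hepatocytes respond to the fat and sugar. Every HFS library was a pool of 2 mice and every chow library came from 1 mouse. Diet and pooling therefore cannot be told apart in these comparisons. In fl/fl mice 0 of 8 genes passed by edgeR, against 0.428% of all genes. At an unadjusted p under 0.05 there were 3 (*Pcx*, *Pklr* and *Khk*), against 1190 of all 13303 genes. By DESeq2 there was 1 (*Khk*, 0.51, adjusted p 0.0466), against 175 of 14598 genes. In LKO mice 0 of 8 passed, against 0.0601%. At an unadjusted p under 0.05 there were 2 (*Pklr* and *Khk*), against 1683 of all 13303 genes. By DESeq2 there was 1 (*Khk*, 0.81, adjusted p 0.000480), against 210 of 13647 genes. Over their 20 alternatives the adjusted p of *Khk* ran from 0.0466 to 0.611 in fl/fl and from 0.000480 to 0.541 in LKO, where it also passed without chow LKO replicate 1 (1.09, adjusted p 0.0456) and with no filter (0.80, adjusted p 0.00497). *Pklr* passed in LKO in 1 of the 20, with no filter (0.65, adjusted p 0.0307, with a range of 0.0307 to 0.873). Averaged over the genotypes 1 of 8 passed, against 1.10%, and that gene was *Khk*. Over all genes there were 1968 of 13303 at an unadjusted p under 0.05 and 522 of 14122 by DESeq2. Among the 8 there were 3 at an unadjusted p under 0.05 (*Pcx*, *Pklr* and *Khk*). DESeq2 called 2, adding *Pklr* at 0.59 (adjusted p 0.0256, with a range of 0.000371 to 0.365 over the 19 alternatives), as did edgeR without chow LKO replicate 1, where *Pklr* was at 0.84 (adjusted p 0.0366). With HFS above chow in every library, 2 of 8 genes did not overlap (*Pcx* and *Khk*), against 1.48% of all genes in either direction. The median of the 8 averaged diet differences was 0.22 against -0.003 over all genes, with 6 positive and *Pck1* and *G6pc* negative. The interaction had 0 of 8 past the threshold by edgeR, against 0% of all genes, with 0 at an unadjusted p under 0.05 and 0 by DESeq2. Over all genes the interaction gave 0 by edgeR, 816 at an unadjusted p under 0.05 and 31 by DESeq2.

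**Figure D2:**
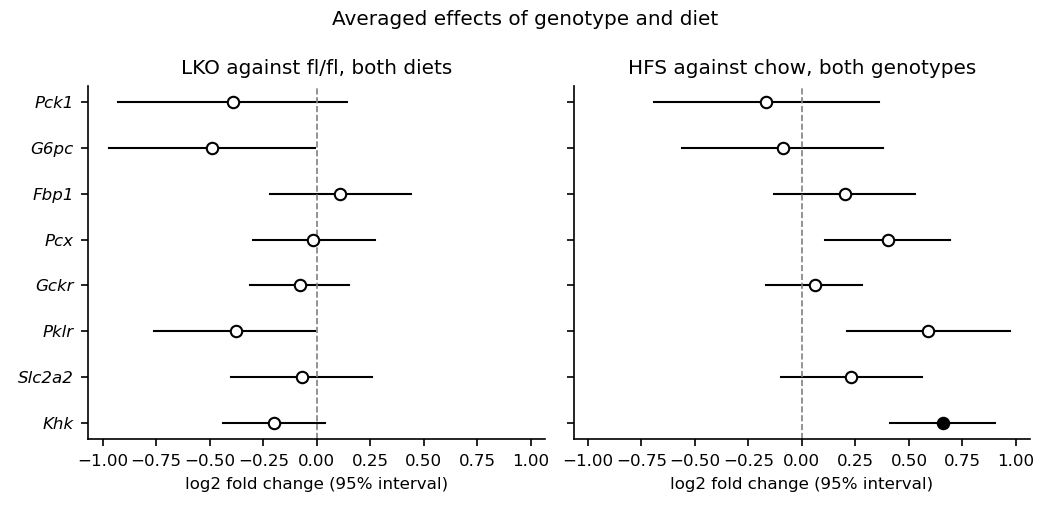
Averaged log2 fold changes of the 8 genes (points, horizontal axis) with 95% intervals (lines), for LKO against fl/fl on the left and HFS against chow on the right. The filled point passed the adjusted threshold and the open points did not, and *Khk* at 0.66 for diet is the filled one.

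Markers of other liver cells were compared by diet beside *Khk*, although the cells had been purified. Of 10 sinusoidal endothelial markers 1 passed for the averaged diet comparison (*Stab2*, 1.06, adjusted p 0.0386), 10 were at an unadjusted p under 0.05, 10 passed by DESeq2 and the median difference was 1.11. Their summed level was 103, 42.9 and 51.2 CPM in chow fl/fl, 32.4 and 26.2 in chow LKO, 138, 82.0 and 113 in HFS fl/fl, and 104, 76.1 and 68.8 in HFS LKO, with *Stab2* the most abundant at a mean of 23.2. Of 8 stellate cell markers tested 1 passed (*Reln*, 1.36, adjusted p 0.0486), 5 were at an unadjusted p under 0.05, 3 passed by DESeq2, the median difference was 1.20 and the summed level of the list was 56.7, 17.2 and 22.3 CPM in chow fl/fl, 12.2 and 15.0 in chow LKO, 51.9, 33.9 and 29.6 in HFS fl/fl, and 67.5, 41.3 and 32.5 in HFS LKO, led by *Ecm1* at 10.8. Of 10 macrophage markers 0 passed by edgeR (4 at an unadjusted p under 0.05, 0 by DESeq2, median 0.54), and their sum ran from 17.6 to 86.7 CPM with *Cd5l* leading at 10.6. Leaving out 1 library at a time gave 0 to 9 higher endothelial, 0 to 4 stellate and 0 to 6 macrophage markers, with 0 in each list without HFS LKO replicate 1 and the most without chow fl/fl replicate 1. No marker of these lists was at 0 in every library, though *Des* and *Acta2* were too low to be tested. The median differences of the endothelial, stellate and macrophage lists were 0.76, 0.35 and -0.01 in fl/fl, where edgeR and DESeq2 each called 0 and 2, 0 and 0 were at an unadjusted p under 0.05. In LKO they were 1.55, 2.12 and 1.31, with 0 called by edgeR, 10, 5 and 5 at an unadjusted p under 0.05 and 9, 3 and 0 by DESeq2. The part of these markers in the rise of *Khk* was not tested. In bulk hepatocytes, fewer cells of a type and less RNA per cell cannot be told apart.

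Hepatocyte and endothelial markers were compared by genotype too. Of 10 endothelial markers 3 were lower in LKO for the average over the diets, 10 were at an unadjusted p under 0.05 and 7 passed by DESeq2, with a median difference of -0.88 and 0 to 6 lower on leaving out 1 library (0 without HFS LKO replicate 2) and 1 with library totals. The endothelial median was -1.34 on chow, with 0 called by edgeR, 9 at an unadjusted p under 0.05 and 7 by DESeq2, and -0.38 on HFS, with 0, 0 and 0. Of 14 hepatocyte markers tested, 0 were higher and 7 lower in LKO for the average over the diets, with *F2*, *Serpina1a* and *Apoa1* at -0.90, -0.80 and -1.33 (adjusted p 0.000970, 0.00187 and 0.00225). The summed level of the list was 166097, 186099 and 193800.3 CPM in chow fl/fl, 92113 and 58006 in chow LKO, 149154, 147731 and 159868 in HFS fl/fl, and 106935, 74626 and 86214 in HFS LKO, led by *Alb*. Leaving out 1 library at a time gave 5 to 8 lower, with 5 without HFS LKO replicate 2. The part of this in the genotype differences of the 8 genes was not tested.

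The other genes of gluconeogenesis give the setting of *Pcx*, *Pck1*, *Fbp1* and *G6pc*. Of the 21 listed genes tested, 2 were higher and 4 lower in LKO for the average over the diets, and none of these 4 genes was among them. With library totals 8 were higher and 1 lower, and without HFS LKO replicate 2 the list had its fewest calls. *Sds* encodes serine dehydratase, which makes pyruvate from serine, and stood at 189, 106 and 151 CPM in chow fl/fl, 32.3 and 8.78 in chow LKO, 109, 229.6 and 136 in HFS fl/fl, and 44.4, 17.7 and 21.3 in HFS LKO. Every LKO library was below every fl/fl library, and the averaged log2 fold change was -2.68 (adjusted p 0.00120). *Gpd1*, which links glycerol to the triose phosphates, rose by 0.62 (adjusted p 0.00869), and the malate dehydrogenase gene *Mdh2* rose by 0.40 (adjusted p 0.0117).

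*Slc37a4* encodes the carrier that brings glucose 6-phosphate to the enzyme made from *G6pc*. It was at 277, 281 and 319 CPM in chow fl/fl, 262 and 129 in chow LKO, 310.0, 327 and 361 in HFS fl/fl, and 229.9, 184 and 194 in HFS LKO. All LKO libraries were below all fl/fl libraries, and the averaged log2 fold change was -0.65 (adjusted p 0.0222, with a range of 2.62e-05 to 0.0591 over the 19 alternatives). The call was lost without HFS fl/fl replicate 3 (-0.62, adjusted p 0.0531), HFS LKO replicate 2 (-0.62, adjusted p 0.0591) or HFS LKO replicate 3 (-0.63, adjusted p 0.0525), and with library totals (-0.37, adjusted p 0.0510). The remaining called pair, *Mpc2* (-0.52, adjusted p 0.0188) of the mitochondrial pyruvate carrier and *Mdh1* (-0.36, adjusted p 0.0316), also lost their calls with library totals, at -0.22 and -0.07 (adjusted p 0.137 and 0.524). *Mpc2* lost it also without chow LKO replicate 2 (-0.45, adjusted p 0.0983), and *Mdh1* lost it without any 1 of 7 libraries, that one among them (-0.28, adjusted p 0.138). The paralogues *Pck2*, *G6pc3* and *Fbp2* were low in every library, at up to 8.93, 8.12 and 0.575 CPM.

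Regulators of the pathway, from *Ppargc1a* and *Foxo1* to the glucagon and insulin receptor genes, gave 0 of 19 past the threshold for the averaged genotype comparison (edgeR, 2 at an unadjusted p under 0.05, 1 by DESeq2) and 0 of 19 for the averaged diet comparison (3 at an unadjusted p under 0.05, 2 by DESeq2). With library totals 4 of the 19 were higher in LKO on average. The smallest p among them by TMM were those of *Klf15* for genotype (-0.33, adjusted p 0.0732) and *Nr0b2* for diet (1.17, adjusted p 0.0615).

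The glycolysis genes give the setting of *Pklr*. *Hk2*, a hexokinase gene hardly expressed in adult hepatocytes, was at 0.110, 0.0578 and 0 CPM in chow fl/fl, 1.36 and 2.05 in chow LKO, 0.286, 0.102 and 0.343 in HFS fl/fl, and 2.44, 4.79 and 1.76 in HFS LKO. Every LKO library was above every fl/fl library, and the averaged log2 fold change was 4.21 (adjusted p 0.000274). *Pdk4*, which shuts pyruvate out of oxidation, rose by 2.45 (adjusted p 0.0118) but not past the threshold without chow LKO replicate 2 (1.29, adjusted p 0.110), a library where it stood at 34.6 CPM. *Eno3* (0.57, adjusted p 0.0321) lost its call without any 1 of 7 libraries, chow LKO replicate 2 among them (0.52, adjusted p 0.139). For diet 1 gene of the list passed, and it was lower, the aldolase C gene *Aldoc* at -1.76 (adjusted p 0.0124), while *Pklr* did not pass. *Pkm*, the pyruvate kinase gene of other tissues, stood at 0.693 to 2.53 CPM.

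Fructose reaches *Khk* through carriers in the cell membrane. *Slc2a5*, the gene of the fructose carrier GLUT5, stood at a mean of 15.8 ± 4.82 CPM in chow fl/fl (SD, n = 3), 7.28 ± 1.71 in chow LKO (n = 2), 18.2 ± 2.44 in HFS fl/fl (n = 3) and 9.52 ± 1.73 in HFS LKO (n = 3). Within each diet all LKO libraries were below all fl/fl libraries, and the averaged log2 fold change was -1.02 (adjusted p 0.00299). *Slc2a8*, the gene of another hexose carrier, stood at 16.3 to 29.6 CPM in fl/fl and at 8.99 to 12.3 in LKO, and its averaged log2 fold change was -0.94 (adjusted p 0.00151).

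*Akr1b3*, whose aldose reductase opens the polyol route from glucose to fructose, rose by 1.38 in LKO (adjusted p 0.00205) from a low level of 0.404 to 1.48 CPM in fl/fl. *Slc2a5*, *Slc2a8* and *Akr1b3* passed in all 19 alternatives of the averaged comparison. For diet the fructose and polyol list gave 1 higher, *Khk*, and 1 lower, *Arrdc4*, a gene known to answer to the glucose sensor ChREBP. Its mean was 18.6 ± 2.18 CPM in chow fl/fl (SD, n = 3), 10.7 ± 0.0578 in chow LKO (n = 2), 8.51 ± 2.22 in HFS fl/fl (n = 3) and 9.15 ± 1.56 in HFS LKO (n = 3). It fell in fl/fl with HFS, where all HFS libraries were below all chow libraries (-1.12, adjusted p 0.0352), and overlapped in LKO, with an interaction of 0.90 that did not pass (adjusted p 0.687). The call in fl/fl was lost without any 1 of 5 libraries, with the adjusted p reaching 0.140 without HFS fl/fl replicate 1. Averaged over the genotypes it was -0.67 (adjusted p 0.0484), and that call was lost without any 1 of 9 libraries.

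**Figure D3:**
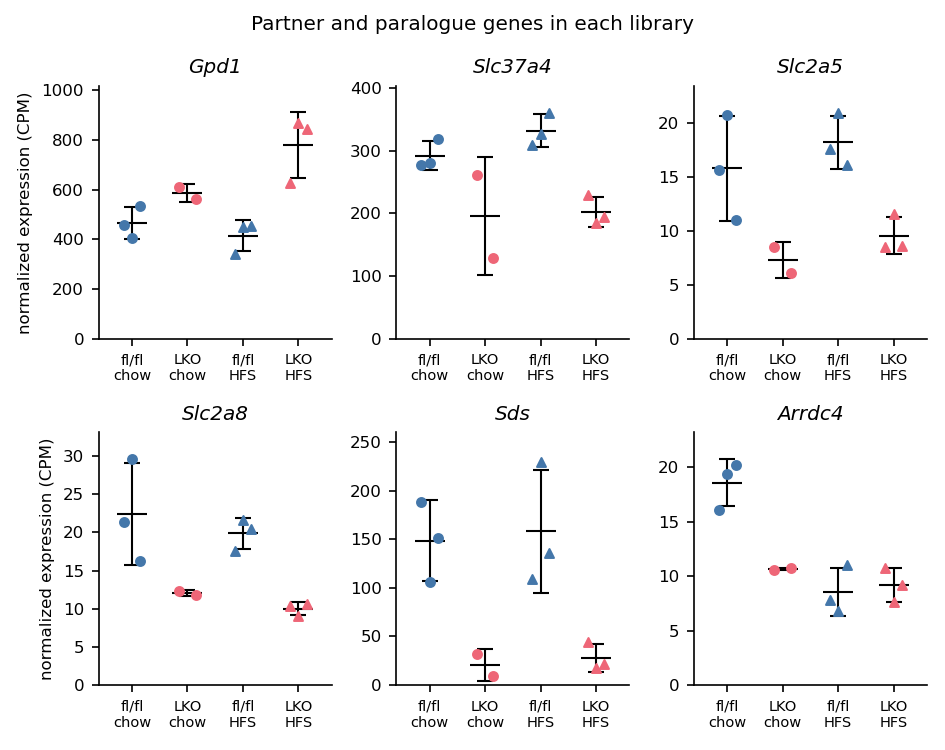
Normalised expression (CPM, vertical axes from 0) of *Gpd1*, *Slc37a4*, *Slc2a5*, *Slc2a8*, *Sds* and *Arrdc4* in each library, with the mean and SD of each group and the symbols of the plot of the 8 genes. *Slc37a4*, *Slc2a8* and *Sds* have every LKO library below every fl/fl library.

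*Slc2a2* stood at 294 to 567 CPM, and of the 8 genes tested in its list of carriers, 6 for hexoses and *Slc16a1* and *Slc16a7* for monocarboxylates, 0 were higher and 2 lower in LKO for the averaged comparison, the same *Slc2a5* and *Slc2a8*, while with library totals 4 were higher and 2 lower. *Slc2a1*, the gene of the widely expressed glucose carrier GLUT1, stood at 9.11 to 17.6 CPM. For diet 0 of 8 passed by edgeR (2 at an unadjusted p under 0.05, 1 by DESeq2), and the smallest p was that of *Slc2a4*, with a log2 difference of 3.19 (adjusted p 0.0671). Of 16 glycogen genes, 1 was higher in LKO for the averaged comparison (*Gbe1*, 0.40, adjusted p 0.0321, lost without any 1 of 7 libraries) and 7 with library totals, and 1 was lower with HFS (*Phkg2*, -0.50, adjusted p 0.0333, lost without any 1 of 7, as at -0.46 with an adjusted p of 0.143 without chow LKO replicate 2).

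Where in the liver lobule these genes are used gives another view of *Pck1* and *Sds*, both known as periportal. Of 10 periportal genes 0 were higher and 8 lower in LKO for the average over the diets, with a median log2 difference of -1.89, and *Pck1* at -0.39 and *Ass1* were the ones that did not pass. Of 11 pericentral genes 8 were higher and 0 lower, with a median of 1.44, among them *Glul* (2.93, adjusted p 4.88e-05), *Rhbg* (3.51, adjusted p 6.29e-05) and *Slc1a2* (2.37, adjusted p 0.000117). *Cyp2e1*, *Cyp1a2* and *Cyp27a1* did not pass. *Cyp2e1* was the most abundant gene of the list, at a mean of 11797 CPM. On HFS all its LKO libraries were below all fl/fl libraries, and on chow the genotypes overlapped. Leaving out 1 library at a time gave 7 to 9 lower periportal genes, and 7 to 8 higher and 0 to 1 lower pericentral genes. Library totals gave 8 lower periportal and 8 higher pericentral genes. On chow alone 7 periportal genes were lower and 7 pericentral genes higher, and on HFS alone 5 and 6, with 0 lower periportal genes on chow without chow LKO replicate 2 and 0 on HFS without HFS LKO replicate 3. *Glul*, the glutamine synthetase gene that marks the last cells around the central vein, was at 389.5, 183 and 243 CPM in chow fl/fl, 1799 and 2954 in chow LKO, 418, 414 and 441 in HFS fl/fl, and 2716, 2517 and 3267 in HFS LKO. Every LKO library was above every fl/fl library. For diet 0 of 10 periportal genes passed by edgeR (0 at an unadjusted p under 0.05, 0 by DESeq2) and 0 of 11 pericentral genes (3 at an unadjusted p under 0.05, 2 by DESeq2). The part of these zonal markers in the levels of *Pck1*, *G6pc* and *Pklr* was not tested.

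**Figure D4:**
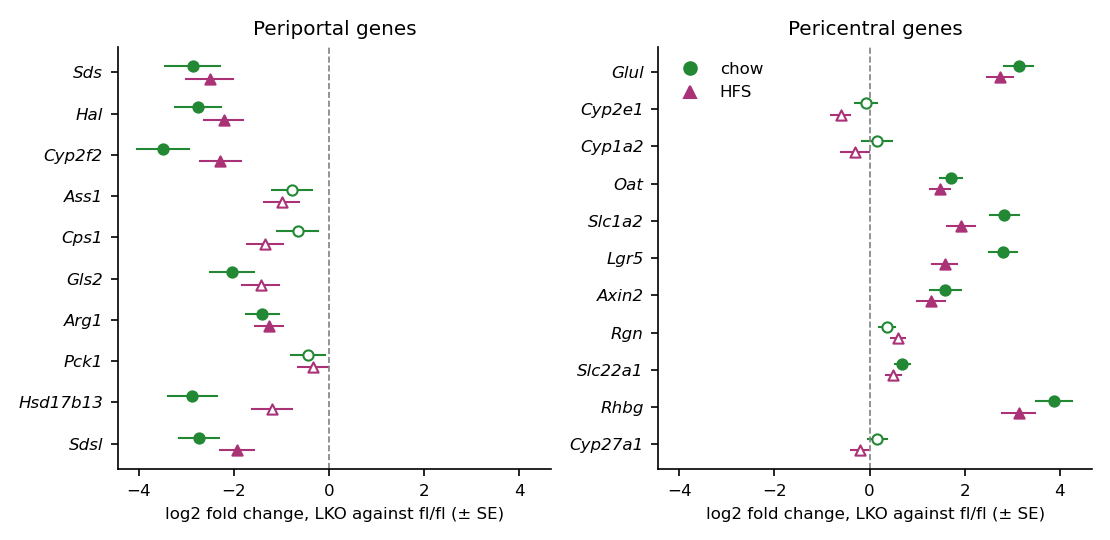
Log2 fold changes in LKO against fl/fl (points, horizontal axes, with SE as lines) of periportal genes on the left and pericentral genes on the right, circles for chow and triangles for HFS, filled where the adjusted threshold was passed. *Pck1* is open on both diets, at -0.44 and -0.34, while *Sds* is filled on both, at -2.86 and -2.51.

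Over the 11 libraries the 8 genes were compared by pairs. Of their 28 pairs, 20 had a positive Pearson r of log2 CPM, and the median r was 0.333. The highest was that of *Pklr* and *Khk* (r 0.872, 0.717 to 0.904 when 1 library was left out), followed by *Pklr* and *Slc2a2* (0.834, range 0.547 to 0.905). The gluconeogenic pair *Pck1* and *G6pc* had an r of 0.687 (range 0.437 to 0.740), and the lowest r was that of *G6pc* and *Fbp1* at -0.396. These values describe the libraries, which share groups, and no p is given.

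Among the 7493 genes with a mean of at least 10 CPM, those most like each member over the 11 libraries were found by the same r. *Pklr* was most like the liver glycogen phosphorylase gene *Pygl* (0.977), then *Gbp7* (0.960). *Arhgap32* (0.949) and *Cab39l* (0.936) were among the genes most like *Khk*. *Pck1* was most like *Klhl3* (0.955), *Slc7a2* (0.927) and *Baz2a* (0.909), and *G6pc* was most like *Ppp1r3g* (0.901), *Ttll5* (0.884) and *Spty2d1* (0.863). No gene was named for more than 1 of the 8. *Slc2a2* was most like *Nmrk1* (0.955), *Dhdh* (0.951) and *D2hgdh* (0.946). *Pcx* was most like *Gna12* (0.943), *Acot11* (0.942) and *Trappc9* (0.940), *Fbp1* like *Fam172a* (0.882), *Armh3* (0.872) and *Dab2ip* (0.866), and *Gckr* like *Ogfrl1* (0.874), *Acad8* (0.863) and *Narf* (0.860).

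The promoters of *Khk* and *Pklr*, the pair with the highest r, are shown with that of *Pck1*, the gene with the highest level per kilobase. All 8 genes matched the RefSeq promoter table (GRCm38.p6, 250 bases before to 50 after the gene start), with a pair of promoters each for *Pcx* and *Pklr*. The motifs searched on both strands were TGACGTCA, TTACGTCA and TGACGTGG, of the cyclic AMP and XBP1 type, the E-box CACGTG, the related CACGGG of ChREBP sites, CAAAGTCCA of HNF4A sites and TGTTTAC of forkhead sites. Of 32851 promoters, 1.79%, 0.499%, 0.676%, 7.15%, 10.1%, 0.475% and 3.65% held them, in that order. The sequences run 5′ to 3′ on the plus strand, with the motifs in capitals.
Khk, chr5:30921309-30921608: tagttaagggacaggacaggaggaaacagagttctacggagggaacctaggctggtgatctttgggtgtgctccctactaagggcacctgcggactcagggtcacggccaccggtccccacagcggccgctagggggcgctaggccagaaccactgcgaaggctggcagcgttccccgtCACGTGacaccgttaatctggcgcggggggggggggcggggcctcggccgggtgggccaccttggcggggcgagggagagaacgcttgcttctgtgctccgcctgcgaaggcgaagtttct
Pklr, second promoter, chr3:89136373-89136672: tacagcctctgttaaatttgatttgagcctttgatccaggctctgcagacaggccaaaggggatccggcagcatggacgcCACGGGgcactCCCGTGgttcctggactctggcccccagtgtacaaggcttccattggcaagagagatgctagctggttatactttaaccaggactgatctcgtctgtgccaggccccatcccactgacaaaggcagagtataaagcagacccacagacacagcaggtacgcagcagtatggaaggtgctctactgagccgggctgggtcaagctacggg
Pck1, chr2:173152823-173153122: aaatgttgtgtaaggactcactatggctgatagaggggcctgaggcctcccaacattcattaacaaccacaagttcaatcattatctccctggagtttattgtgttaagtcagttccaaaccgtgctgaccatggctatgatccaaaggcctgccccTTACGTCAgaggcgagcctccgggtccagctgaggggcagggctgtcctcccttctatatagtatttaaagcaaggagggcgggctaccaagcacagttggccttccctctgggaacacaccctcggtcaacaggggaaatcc
The *Khk* promoter holds CACGTG from position -71. Positions are counted from the start in the promoter table, which can differ from the first base of the gene, as it does for *Khk*, *Pck1*, *G6pc* and *Gckr*. The second *Pklr* promoter holds CACGGG from -170 and its complement CCCGTG from -159, and that of *Pck1* holds TTACGTCA from -93. The first *Pcx* promoter holds CACGTG from -248 and that of *G6pc* holds CACGGG from 37, while none of the 7 motifs was found in the windows of *Fbp1*, *Gckr* and *Slc2a2*, the first of *Pklr* or the second of *Pcx*. These matches describe letters in the windows and were not tested for binding.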

How the data were processed

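RNA of 11 hepatocyte libraries is given as whole-number counts per Ensembl gene, used as deposited by the authors. The paper names kallisto with tximport, and the submitters' notes name cutadapt 1.13, STAR and HTSeq 0.6.1p1 on mm10, so how the counts were made is not settled. Symbols came from GENCODE M21. Genes past filterByExpr (minimum count 10) were fitted in edgeR 4.0.16 (R 4.3.3) with TMM factors in 1 model of the 4 groups, tested by quasi-likelihood and adjusted by Benjamini-Hochberg at 0.05. Alternatives were other scalings and filters, a replicate block, DESeq2 1.42.0 and leaving out each library. Correlations are of log2 CPM. The members and the 18 gene lists were chosen with earlier results of these data known. Named genes are all members, up to 3 genes of a list with the smallest p among those past the threshold (else the 1 with the smallest p), pathway genes named for their role, and genes among the 3 most like each member. *Arntl*, *Ass1*, *Cyp2e1*, *Cyp1a2* and *Cyp27a1* were named after their values were seen.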

Additional observations from a re-analysis of the deposited data

How the results depend on the processing

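Of 1096 values of single members under the alternatives, 1029 kept their direction and 67 reversed, of which 17 arose outside leave-one-out and 12 of those with library totals. No result with a log2 size above 0.28 reversed. With library totals the log2 differences between LKO and fl/fl were 0.24 for *Fbp1*, 0.21 for *Gckr* and 0.19 for *Slc2a2* on chow, 0.20 for *Pcx*, 0.21 for *Gckr*, 0.24 for *Slc2a2* and 0.21 for *Khk* on HFS, and 0.28 for *Pcx*, 0.21 for *Gckr*, 0.22 for *Slc2a2* and 0.09 for *Khk* averaged, and the interaction of *G6pc* was -0.003. With upper quartile factors *Slc2a2* on HFS was 0.03 and averaged *Pcx* 0.02, and with no filter averaged *Pcx* was 0.001. The replicate block gave -0.02 for *Pcx* between genotypes on chow and 0.004 for *G6pc* between diets in LKO, and it left averaged *Khk* at 0.65 with an adjusted p of 0.0481. Replicate numbers did not pair the libraries (mean r of same-number libraries -0.009). The causes of the other reversals were not tested. DESeq2 called 175 of 14598 genes for diet in fl/fl, 210 of 13647 in LKO and 522 of 14122 averaged over the genotypes. The count of members past the threshold was 1 with DESeq2 for diet in fl/fl. For diet in LKO it was 2 with no filter (722 of 26016 genes) and 1 with DESeq2, and 0 to 1 on leaving out 1 library. For genotype averaged over the diets it was 1 with library totals, where 5790 of 13303 genes passed, and 2 with no filter, where 2325 of 26016 passed, and 0 to 1 on leaving out 1 library. For diet averaged over the genotypes it was 2 with no filter (1003 of 26016 genes) and 2 with DESeq2, and 0 to 2 on leaving out 1 library. For genotype on each diet and the interaction the count was 0 in every alternative run. Without 1 chow LKO library that group has 1, assumed to vary like the others. Leaving out 1 library at a time, the log2 differences that changed sign had these lowest and highest values. For genotype on chow they were -0.45 and 0.21 for *Fbp1*, -0.16 and 0.17 for *Pcx*, -0.34 and 0.08 for *Gckr* and -0.64 and 0.26 for *Slc2a2*. For genotype on HFS they were -0.14 and 0.003 for *Pcx*, -0.09 and 0.05 for *Slc2a2* and -0.12 and 0.03 for *Khk*. For diet in fl/fl they were -0.56 and 0.10 for *G6pc*, -0.16 and 0.14 for *Fbp1* and -0.04 and 0.14 for *Gckr*. For diet in LKO they were -0.53 and 0.22 for *Pck1*, -0.23 and 0.17 for *G6pc*, -0.10 and 0.31 for *Gckr* and -0.09 and 0.80 for *Slc2a2*. For the interaction they were -0.32 and 0.44 for *Pck1*, -0.15 and 0.51 for *G6pc*, -0.23 and 0.10 for *Pcx*, -0.13 and 0.28 for *Gckr*, -0.22 and 0.63 for *Pklr* and -0.28 and 0.62 for *Slc2a2*. For averaged genotype they were -0.08 and 0.26 for *Fbp1*, -0.11 and 0.06 for *Pcx*, -0.20 and 0.02 for *Gckr* and -0.33 and 0.12 for *Slc2a2*. For averaged diet they were -0.37 and 0.000 for *Pck1*, -0.30 and 0.03 for *G6pc* and -0.03 and 0.17 for *Gckr*.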

Other observations

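Among genes of other routes, *Taldo1* of the pentose phosphate pathway was the 1 of 8 lower in LKO for the average over the diets (-0.33, adjusted p 0.0183), and it lost the call with library totals (-0.04, adjusted p 0.706) and without chow LKO replicate 2 (-0.28, adjusted p 0.0954). For diet 0 of 8 passed by edgeR, with 0 at an unadjusted p under 0.05 and 0 by DESeq2. Of 11 genes that respond to fasting, 3 were higher in LKO on average, *Pdk4*, the hormone gene *Fgf21* (2.05, adjusted p 0.0238) and *Cyp4a14* (1.05, adjusted p 0.0436). All 3 lost their calls without chow LKO replicate 2, at 1.29, 1.33 and 1.23 (adjusted p 0.110, 0.205 and 0.0504). *Fgf21* lost its call without any 1 of 6 libraries and *Cyp4a14* without any 1 of 9. For diet 0 of the 11 passed by edgeR, with 1 at an unadjusted p under 0.05 and 0 by DESeq2.

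Of 13 clock genes 0 passed for genotype (1 at an unadjusted p under 0.05, 0 by DESeq2) and 0 for diet (3 at an unadjusted p under 0.05, 0 by DESeq2), both averaged and by edgeR. Leaving out 1 library gave 0 to 5 lower and 0 to 1 higher for genotype, and 0 to 1 lower and 0 to 3 higher for diet, with the most in each without chow LKO replicate 1. Of 12 immediate early genes 2 were higher in LKO on average, *Atf3* (3.95, adjusted p 0.000558) and *Myc* (1.82, adjusted p 0.0430). Leaving out 1 library gave 1 to 2 higher, with 1 without HFS LKO replicate 1. *Myc* was at 3.02 on chow (adjusted p 0.0490) and 0.62 on HFS (adjusted p 0.726), with an interaction of -2.39 that did not pass (adjusted p 0.793). *Atf3* was at 0.496, 1.21 and 0.945 CPM in chow fl/fl, 6.52 and 43.0 in chow LKO, 0.952, 0.611 and 0.685 in HFS fl/fl, and 6.72, 3.23 and 9.43 in HFS LKO, with every LKO library above every fl/fl library. For diet 0 of the 12 passed by edgeR, with 0 at an unadjusted p under 0.05 and 0 by DESeq2.

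Of the other cell type lists in the averaged genotype comparison, endothelial markers gave 0 higher and 3 lower of 10, and *Wfdc2* (-2.49, adjusted p 0.00111) and *Sox9* (-1.16, adjusted p 0.00369) were the 2 lower of 4 bile duct markers tested. Macrophage, stellate and lymphocyte or neutrophil markers gave 0 of 10, 0 of 8 and 0 of 3 by edgeR, with 0, 1 and 1 at an unadjusted p under 0.05 and 0 each by DESeq2. On chow the stellate median was -1.24, with 0 called by edgeR, 3 at an unadjusted p under 0.05 and 2 by DESeq2. On HFS it was 0.26, with 0, 1 and 0. The macrophage median was -0.52 on chow, with 0, 0 and 0, and 0.62 on HFS, with 0, 1 and 0.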
